A study of Mus musculus with 12 samples.

Results

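Cdkn1a (p21) and 9 other genes of the p53 pathway were described across cell types of the neonatal mouse dentate gyrus with and without Larp7. This RNA-binding protein stabilises the 7SK RNA, whose complex holds the kinase P-TEFb inactive. The 10 members were Cdkn1a, Mdm2, Ccng1, Trp53inp1, Phlda3, Zmat3, Bax, Bbc3, Sesn2 and Trp53. They were selected on measured values of these same libraries, above all the Cdkn1a level in mutant and wild-type cells, so those values are given as a description without a test. All 10 were found by symbol among 27998 features of the single-cell libraries, and all 10 by Entrez ID among 40814 genes of the bulk table.

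Single-cell libraries, 1 per genotype, came from the dentate gyrus at postnatal day 7 of wild-type, Larp7f/f;nestin-Cre and Larp7f/f;Emx1-Cre mice. Bulk RNA-seq covered 2 wild-type and 3 Larp7f/f;Emx1-Cre libraries of neurospheres, labelled as day 2 of differentiation. Floxed mice without Cre served as wild type, gyri of several littermates were pooled for each single-cell library, and the neurospheres were grown from newborn dentate gyrus. Nestin-Cre deletes in neural stem cells and their progeny and Emx1-Cre in the dorsal forebrain lineage, so microglia and endothelial cells lie outside both intended lineages.

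The transcription factor p53 is kept low by its own target Mdm2, a ubiquitin ligase. When p53 is stabilised, for instance by DNA damage, it activates genes that stop the cell cycle, feed back on p53 or start apoptosis. Cdkn1a, which inhibits cyclin-dependent kinases, is the best known of these, but it is also controlled by other factors, so the other targets were examined in the same cells.

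The labels of the mutant single-cell libraries contradict themselves, since the title of each names one Cre driver and its genotype entry names the other. The titles were followed here. The cell numbers in the methods of the study lie within the barcode numbers of the libraries as titled. They cannot match the genotype entries, since the number for nestin-Cre is larger than all barcodes of the library titled Emx1.

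The wild-type library held 12876 barcodes and 28918491 UMIs, the nestin-Cre library 7177 and 26689878, and the Emx1-Cre library 6821 and 28537738. Cells with more than 500 genes and under 15% mitochondrial UMIs numbered 10997, 6685 and 6531. The study states the same limits but reports more cells for each of these libraries, so its set of cells was not reproduced. The median depth of the cells kept here was 1782 UMIs in wild type against 3644 and 3873 in the mutants, so the wild-type cells were the shallowest. Of these cells, wild type and nestin-Cre shared 16 barcodes, wild type and Emx1-Cre 15, and the mutants 8. The neurosphere libraries held 60841963 and 61187612 counts in wild type and 59821311, 60335267 and 62474602 in the knockout.

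Cells were assigned to a gate when they held UMIs of at least 3 of its 10 marker genes and of more markers than of any other of 15 classes. This placed 8782, 6015 and 5819 cells of the wild-type, nestin-Cre and Emx1-Cre libraries. The same order of libraries is used for every set of 3 values here. Radial glia-gated cells numbered 914, 750 and 841, neuronal intermediate progenitor (nIPC) cells 389, 218 and 400, and neuroblasts 4861, 3515 and 3040. Astrocyte-gated cells numbered 1220, 631 and 832, oligodendrocyte precursors 255, 293 and 311, and microglia 506, 430 and 239. The endothelial gate held 128, 34 and 80 cells. Among the 10 genes most enriched in each of these 7 gates, 3 to 5 were its own markers and 0 were markers of another class.

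Some wild-type cells also lay apart from the others. Leiden clustering gave 2 clusters of which 93.2% and 97.4% of cells came from wild type. They held 44.5% of the wild-type neuroblast-gated cells, at a median of 1107 UMIs against 3080 in the other wild-type neuroblasts, but 2.5% and 2.86% of those in the mutants. Whether they are cells of low quality was not tested. In the radial glia, nIPC and astrocyte gates they held 17.0%, 15.9% and 30.2% of the wild-type cells. Leaving these clusters out was added after seeing the data, and its values are given where the neuroblast gate is described. Possible doublets were kept, and leaving out cells with markers of several classes (1171, 197 and 247) was run as an alternative.

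Larp7, the deleted gene, was measured first. Its level was 64.7, 14.1 and 9.35 CPM (UMIs scaled to the total of the gate) in radial glia, 105.8, 19.5 and 19.3 in nIPC, and 55.8, 10.2 and 13.1 in neuroblasts. Astrocytes gave 28.8, 3.11 and 7.49 CPM, and oligodendrocyte precursors 41.7, 12.6 and 18.5. Both mutant libraries were thus lower than wild type in every neural gate described. In microglia the values were 58.5, 36.4 and 37.7 CPM, and in endothelial cells 49.1, 63.6 and 43.9. Microglia, outside both intended lineages, thus also had less Larp7 in the mutants, at ratios of 0.623 (0.432 to 0.894) and 0.646 (0.417 to 0.981). These are 3′ tags, which check a deletion only as far as loss of the exon lowers the whole transcript, and they do not tell the drivers apart. In neurospheres Larp7 stood at 42.8 and 35.0 CPM in wild type and at 4.17, 6.35 and 4.39 in the knockout. It fell by 2.97 on the log2 scale (SE 0.205, edgeR quasi-likelihood adjusted p = 0.0198), lower in 3 of 3 knockout libraries. By the same edgeR test it did not pass with a replicate block (adjusted p = 0.344) or without knockout replicate 1 (0.148) or 3 (0.195). The log2 fold changes there were still -2.90, -2.85 and -2.88.

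With 1 library per genotype no gate comparison has a test. The 95% intervals below are exact Poisson intervals for a level and exact conditional binomial intervals for a ratio, and they cover counting error only, not differences between animals. Both mutants were compared with the same wild-type library, so their ratios are not independent of each other.

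Among the 7 gates described, Cdkn1a, the inhibitor of cyclin-dependent kinases, was most abundant in microglia and endothelial cells. Microglia held 367.9 (335.5 to 402.6), 436 (403 to 470.1) and 441 (398 to 486) CPM. These cells carried 51.4%, 55.3% and 40.5% of all Cdkn1a UMIs of the kept cells. Endothelial cells followed at 159.9 (134.5 to 189), 428 (349 to 520.0) and 157 (130.4 to 187) CPM. The microglial interval lay above the endothelial one in wild type and Emx1-Cre and overlapped it in nestin-Cre. Pooled over neural gates the level was 8.78, 15.9 and 16.4 CPM, against 232, 403 and 290.0 over non-neural gates. The non-neural pools differed in make-up: wild type held 429 erythroid-gated cells, at 43 CPM, against 6 and 3 in the mutants.

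In the 5 large neural gates Cdkn1a was lower, and radial glia, nIPC and astrocytes had more of it in both mutants than in wild type. Radial glia gave 7.65 (4.90 to 11.4), 22.9 (17.9 to 28.8) and 22.8 (18.2 to 28.3) CPM from 24, 73 and 83 UMIs. The ratio to wild type was 2.99 (1.86 to 4.96) in nestin-Cre and 2.98 (1.88 to 4.92) in Emx1-Cre. In nIPC, the dividing neuronal precursors, the level was 4.28 (1.72 to 8.82), 16.8 (10.1 to 26.2) and 22.5 (16.7 to 29.8) CPM. Since only 7, 19 and 49 UMIs lay behind these values, the ratios of 3.93 (1.58 to 11.1) and 5.27 (2.37 to 13.8) are imprecise. Astrocytes gave 6.53 (4.18 to 9.71), 22.5 (17.1 to 29.1) and 17.8 (13.7 to 22.7) CPM, ratios of 3.45 (2.11 to 5.81) and 2.72 (1.68 to 4.55). In oligodendrocyte precursors 4, 4 and 12 UMIs allowed no difference to be detected, at 6.18, 4.19 and 11.7 CPM. In wild type these 5 gates were between 4.28 and 10.6 CPM, and the intervals of all neighbours in that order overlapped. Cajal-Retzius-gated cells, a small neural class, held 0, 30 and 24 Cdkn1a UMIs in 8, 76 and 21 cells. That was 0 (0 to 228) CPM in wild type, 71.0 (47.9 to 101) in nestin-Cre and 179 (115 to 267) in Emx1-Cre. In cluster 17, where 65.6% of gated cells were Cajal-Retzius, 72, 87 and 27 cells gave 0 (0 to 40.8), 81.3 (57.8 to 111.1) and 136.4 (89.13 to 199.9) CPM. Ependymal-gated cells held 1, 20 and 13 UMIs in 2, 8 and 5 cells, which was 272 (166 to 420.3) and 439 (234 to 750.5) CPM in the mutants. In the mutants these small neural gates thus stood above the large ones, on few cells.

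Summed over the neuroblast gate, no difference was detectable. The level was 10.6 (8.75 to 12.6), 10.4 (8.74 to 12.3) and 10.7 (8.91 to 12.6) CPM, ratios of 0.985 (0.766 to 1.27) and 1.01 (0.782 to 1.30). Without the clusters that came mostly from wild type the values were 8.19, 10.2 and 10.1 CPM, ratios of 1.24 (0.920 to 1.69) and 1.23 (0.909 to 1.68). Taken by Leiden cluster, the neuroblast ratios were 1.24 (1.03 to 1.49) and 1.29 (1.08 to 1.54). Those clusters include 6, 9, 13 and 16, in which only 36.9%, 48.3%, 42.4% and 36.3% of gated cells were neuroblasts. Cluster 13 alone stood at 116.4, 295.5 and 83.19 CPM, so these ratios are not of neuroblasts alone. The ratio in neuroblasts lay below that in radial glia, nIPC and astrocytes when the gate was summed with or without those clusters, a difference between gates that was not tested.

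Single clusters of neuroblast-gated cells, a split chosen after seeing the data, gave other values than their sum. Cluster 0, mostly wild type, held 39.5%, 2.39% and 2.66% of the gated cells and stood at 18.3, 19.2 and 24.9 CPM of Cdkn1a. Cluster 2 held 17.4%, 22.3% and 32.7% of them, at 1.90 (0.616 to 4.43), 7.04 (4.30 to 10.9) and 6.098 (3.91 to 9.07) CPM from 5, 20 and 24 UMIs. Its ratios were 3.71 (1.35 to 12.7) and 3.21 (1.20 to 10.8), so there Cdkn1a was higher in both mutants. Cluster 4 gave 2.17, 5.00 and 7.14 CPM, from 2, 18 and 15 UMIs, and cluster 1 gave 1.96, 9.68 and 2.75 CPM, from 4, 33 and 8 UMIs. In the smaller cluster 9 the mutants lay on opposite sides of wild type, at 12.0, 48.2 and 2.77 CPM. Of 120 wild-type Cdkn1a UMIs of the gate, cluster 0 held 47 and cluster 14, in which most gated cells were microglia, another 21, against 1 and 2 UMIs of cluster 14 in the mutants. The ratio near 1 over the whole gate thus joined clusters with different ratios. For comparison, cluster 3, in which 72.6% of gated cells were radial glia, stood at 4.57, 14.3 and 15.5 CPM, and cluster 5, with 91.9% astrocytes, at 5.32, 23.2 and 14.04 CPM.

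Depth and RNA from other cells moved with these values. The 10 microglial markers, led by C1qb or C1qa, summed to 234, 65.1 and 45.7 CPM in neuroblasts and to 81.3, 35.4 and 22.5 in nIPC, against 15753, 18004 and 17384 in microglia. At the microglial ratio, that RNA would carry 5.45, 1.57 and 1.16 CPM of Cdkn1a in neuroblasts, 1.90, 0.856 and 0.571 in nIPC, and 1.88, 1.17 and 0.872 in radial glia. In each case the wild-type gate carried the most. Subtracting these amounts of microglial RNA, a step chosen after seeing the data, gave ratios of 6.70 and 9.23 in nIPC, 3.76 and 3.80 in radial glia and 5.82 and 4.55 in astrocytes. In neuroblasts it gave 1.73 and 1.86 in place of ratios near 1. The subtraction assumes the mean Cdkn1a level of the microglia gate, and the part of this RNA was not tested. Oligodendrocyte precursors gave 0.321 and 3.285, from few UMIs. Erythroid markers, led by Hbb-bs, summed to 1760.0, 47.2 and 602 CPM in neuroblasts, and their part was not tested. Endothelial markers, counted without the clusters mostly from wild type, summed to 63.8, 20.0 and 124.8 CPM in neuroblasts and 10.9, 13.4 and 42.3 in nIPC. In astrocytes they summed to 23.3, 8.60 and 64.85 CPM, and in radial glia to 27.3, 7.24 and 15.7. They were not subtracted, and their part was not tested either. When each cell was thinned to 1500 UMIs, the ratios were 1.502 (0.655 to 3.58) and 2.15 (1.02 to 4.84) in radial glia and 2.20 (0.886 to 5.76) and 1.78 (0.728 to 4.60) in astrocytes. Thinned nIPC kept 2, 2 and 9 UMIs of Cdkn1a, with ratios of 1.76 (0.127 to 24.2) and 3.97 (0.821 to 37.7). Neuroblasts gave 1.44 (0.911 to 2.32) and 1.42 (0.884 to 2.30) after thinning, no longer far below the other gates. Of these thinned intervals only that of Emx1-Cre radial glia lay above 1, and thinning left out 4785 wild-type cells against 597 and 439.

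In microglia, the ratio of Cdkn1a was 1.18 (1.05 to 1.34) in nestin-Cre and 1.20 (1.05 to 1.37) in Emx1-Cre. These cells lay mostly in 2 clusters, in unequal shares. Cluster 11 held 47.0%, 74.7% and 84.5% of them, at 523, 510.4 and 495.5 CPM, ratios of 0.976 (0.860 to 1.11) and 0.947 (0.822 to 1.09). Cluster 14 held 35.8%, 21.6% and 10.9%, at 120.7, 158 and 108 CPM, ratios of 1.31 (0.825 to 2.07) and 0.894 (0.384 to 1.86). Within either cluster no difference was detectable, and the cluster with less Cdkn1a held a larger share of the wild-type microglia. The share of microglia with a Cdkn1a UMI was 37.4%, 48.1% and 56.1%, and 34.1%, 35.2% and 40.3% after thinning. In neuroblasts it was 2.14%, 2.56% and 3.09%, and 1.09%, 1.29% and 1.20% after thinning. Median depth was 2149, 3228 and 3212 UMIs in microglia and 1758, 3604 and 3812 in neuroblasts. In endothelial cells the ratio was 2.68 (2.05 to 3.48) in nestin-Cre, from 34 cells, and 0.980 (0.763 to 1.26) in Emx1-Cre. The nestin-Cre value was 1.40 (0.970 to 1.98) in cluster 18, where 50.7% of gated cells were endothelial and which held 119, 30 and 36 cells, and 5.39 (2.44 to 12.5) after thinning. Without mixed cells the ratios were 4.82 (2.73 to 8.86) and 1.92 (1.035 to 3.65), so both depended on the cells taken. Erythroid markers summed to 17007, 25.4 and 3987 CPM in these cells and microglial markers to 95.9, 216 and 38.8 CPM, and their part was not tested.

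**Figure D1:**
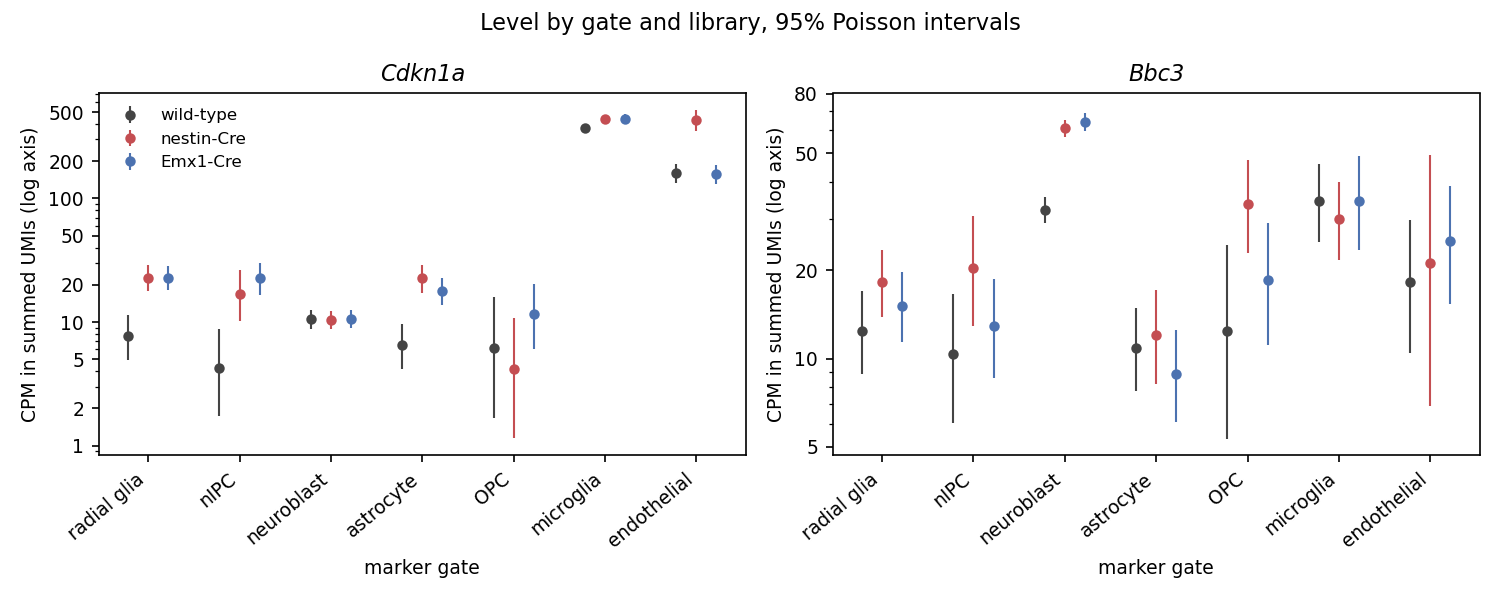
Level of Cdkn1a (left) and Bbc3 (right) in CPM (log axis) in each marker gate (horizontal axis; OPC, oligodendrocyte precursor) of the wild-type, nestin-Cre and Emx1-Cre libraries. Points are summed UMIs of 1 library with 95% Poisson intervals. Cdkn1a is highest in microglia, at 367.9 to 441 CPM, and in neuroblasts Bbc3 stands at 32.1 CPM in wild type against 60.8 and 64.1 in the mutants.

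Mdm2 and Ccng1, which encode the p53 ubiquitin ligase and cyclin G1, belong to the feedback on p53. Mdm2 in neuroblasts was 48.7, 72.7 and 66.5 CPM, ratios of 1.49 (1.34 to 1.66) and 1.37 (1.22 to 1.52). In astrocytes it was 22.3, 40.4 and 30.0 CPM, 1.81 (1.34 to 2.45) and 1.34 (0.999 to 1.81). In oligodendrocyte precursors it was 44.8, 89.1 and 54.6 CPM, 1.99 (1.29 to 3.14) and 1.22 (0.764 to 1.98). Mdm2 was thus higher than wild type in nestin-Cre in each of these gates, while its Emx1-Cre interval excluded 1 only in neuroblasts. In radial glia it was 38.0, 54.3 and 39.3 CPM, 1.43 (1.13 to 1.82) and 1.04 (0.807 to 1.33), and in nIPC 69.7, 87.6 and 71.3, where Cdkn1a had its highest ratios. Microglia gave 56.9, 53.6 and 58.8 CPM of Mdm2, with no detectable difference. Thinned, or taken by Leiden cluster, the nestin-Cre ratio was 1.27 or 1.48 in astrocytes and 3.28 or 1.44 in oligodendrocyte precursors. Ccng1 was 12.0, 17.0 and 16.3 CPM in neuroblasts, ratios of 1.42 (1.14 to 1.77) and 1.37 (1.09 to 1.71), and 11.0, 11.5 and 11.0 in nIPC. In microglia, where Cdkn1a was most abundant, Ccng1 was 23.4, 25.2 and 44.4 CPM, from 30, 38 and 40 UMIs, ratios of 1.08 (0.649 to 1.80) and 1.90 (1.15 to 3.16). Radial glia gave 14.4, 19.1 and 11.8 CPM, astrocytes 18.2, 24.1 and 18.6, and oligodendrocyte precursors 4.64, 12.6 and 16.6, the last from 3, 12 and 17 UMIs.

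Trp53inp1 encodes a nuclear p53-induced protein that promotes cell cycle arrest and apoptosis. In radial glia it was 20.1, 32.0 and 33.6 CPM, ratios of 1.59 (1.15 to 2.22) and 1.67 (1.22 to 2.30), in the same gate in which Cdkn1a was higher in both mutants. Thinned to 1500 UMIs, these ratios were 1.19 and 1.20. In astrocytes the level was 17.4, 29.9 and 23.9 CPM, 1.72 (1.22 to 2.43) and 1.37 (0.981 to 1.93). In nIPC it was 28.1, 28.3 and 29.0 CPM, so Trp53inp1 did not follow Cdkn1a there. In neuroblasts it was 42.8, 48.1 and 50.3 CPM, 1.13 (0.998 to 1.27) and 1.18 (1.04 to 1.33). Oligodendrocyte precursors held 7, 18 and 22 UMIs of it and microglia 15, 25 and 14. Zmat3, a zinc finger RNA-binding protein, was 22.3, 21.9 and 23.1 CPM in neuroblasts and 30.3, 30.1 and 27.2 in radial glia, with ratios close to 1 in both. In nIPC it was 26.9, 15.04 and 22.1 CPM, 0.559 (0.299 to 0.998) and 0.821 (0.534 to 1.26), on the lower side of wild type while Cdkn1a was higher. Astrocytes gave 29.1, 25.7 and 29.1 CPM and oligodendrocyte precursors 41.7, 60.8 and 53.6, and microglia held 15, 13 and 13 UMIs.

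Among the apoptosis genes, Bbc3 (PUMA), a BH3-only protein that triggers mitochondrial apoptosis, was higher in mutant neuroblasts. There it was 32.1 (365 UMIs), 60.8 (807) and 64.1 (801) CPM, ratios of 1.89 (1.67 to 2.15) and 2.00 (1.76 to 2.27). Without the clusters mostly from wild type these were 1.75 (1.53 to 2.01) and 1.88 (1.64 to 2.16). In cluster 2 of these cells Bbc3 was 53.5, 79.2 and 89.9 CPM, ratios of 1.48 (1.19 to 1.84) and 1.68 (1.38 to 2.06), so Bbc3 and Cdkn1a were both higher in that cluster. In cluster 4 it was 50.01, 92.0 and 99.0 CPM and in cluster 1 32.8, 42.2 and 46.4. Oligodendrocyte precursors held 8, 32 and 19 UMIs of Bbc3, 12.4, 33.5 and 18.5 CPM, ratios of 2.71 (1.22 to 6.81) and 1.496 (0.626 to 3.95). In astrocytes it was 10.9, 12.1 and 8.88 CPM, and in microglia 34.3, 29.8 and 34.4. Radial glia gave 12.4, 18.2 and 15.1 CPM and nIPC 10.4, 20.3 and 12.9, from 17 to 58 UMIs each. Of the 7 gates, only neuroblasts had both intervals of Bbc3 above 1.

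Phlda3, an inhibitor of Akt signalling, was 6.95, 12.2 and 10.0 CPM in neuroblasts, ratios of 1.76 (1.34 to 2.33) and 1.44 (1.08 to 1.93). Astrocytes gave 17.7, 24.9 and 24.4 CPM, 1.41 (0.981 to 2.02) and 1.38 (0.991 to 1.93), and radial glia 12.1, 12.5 and 14.9. In oligodendrocyte precursors it was 46.4, 67.1 and 57.5 CPM, 1.45 (0.923 to 2.31) and 1.24 (0.786 to 1.99). It had 6, 2 and 5 UMIs in nIPC and 6, 24 and 8 in microglia, where the ratios were 3.40 (1.35 to 10.2) and 1.90 (0.578 to 6.64). Bax, the pore-forming effector of apoptosis, was lower in mutant radial glia and neuroblasts. It was 270.1, 218 and 222 CPM in radial glia, ratios of 0.808 (0.730 to 0.894) and 0.821 (0.745 to 0.905), and 274, 227 and 248 in neuroblasts, 0.830 (0.789 to 0.873) and 0.905 (0.861 to 0.952). By mean log-normalized value the neuroblast ratio in nestin-Cre was 1.10, so its direction depended on the scale. In nIPC Bax was 270.2, 277 and 282 CPM, in astrocytes 232, 208 and 223, in oligodendrocyte precursors 299.9, 253 and 271, and in microglia 228, 214 and 209.8, with intervals of both ratios that reached 1 in each of these gates.

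Sesn2, a stress sensor that restrains mTORC1, was too sparse for most gates. It had 13, 30 and 22 UMIs in radial glia, 4.15, 9.41 and 6.05 CPM, and 32, 58 and 58 UMIs in neuroblasts, 2.82, 4.37 and 4.64 CPM. The ratio was 2.27 (1.15 to 4.74) and 1.46 (0.704 to 3.16) in radial glia and 1.55 (0.992 to 2.47) and 1.65 (1.05 to 2.63) in neuroblasts. Astrocytes held 25, 22 and 33 UMIs, nIPC 4, 2 and 9, oligodendrocyte precursors 6, 11 and 15, and microglia 15, 20 and 11. Trp53, which encodes p53 itself, was 147, 173 and 184 CPM in neuroblasts, ratios of 1.18 (1.10 to 1.25) and 1.25 (1.17 to 1.33). In microglia it was 117, 145 and 178 CPM, 1.24 (1.00 to 1.54) and 1.52 (1.21 to 1.91). In nIPC it was 215, 242 and 225 CPM, in radial glia 116, 126 and 136, in astrocytes 59.0, 60.3 and 73.3, and in oligodendrocyte precursors 100.5, 91.2 and 107. In radial glia and astrocytes the Emx1-Cre ratio was 1.17 (1.02 to 1.34) and 1.24 (1.03 to 1.49).

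Apart from Bax and Trp53, endothelial cells held few UMIs of the other members. No interval of these members, Bax and Trp53 included, excluded 1 there. Bax was 204, 178 and 183 CPM and Trp53 117, 153 and 129. Mdm2 held 33, 10 and 24 UMIs, Trp53inp1 19, 10 and 15, Bbc3 16, 5 and 20, and Zmat3 11, 1 and 13. Sesn2 held 8, 2 and 5 UMIs, Ccng1 7, 4 and 6, and Phlda3 5, 1 and 4.

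Counted together, members at least 1.5-fold higher than wild type were read against all genes with at least 100 UMIs over the compared libraries. Because the members were chosen with these contrasts known, the counts are descriptions only. In radial glia, 1 of 6 counted members was higher in nestin-Cre (Trp53inp1), where 8.51% of all genes were, and 2 of 6 in Emx1-Cre (Cdkn1a and Trp53inp1), where 3.97% were. In nIPC it was 0 of 3 beside 5.54% and 0 of 4 beside 4.02%, with Cdkn1a itself below the minimum of UMIs. In neuroblasts it was 2 of 9 (Bbc3 and Phlda3) beside 10.7%, and 1 of 9 (Bbc3) beside 7.41%. In astrocytes it was 2 of 7 (Mdm2 and Trp53inp1) beside 4.92%, and 0 of 7 beside 3.03%. Cdkn1a was below the minimum of UMIs there too, as in nestin-Cre radial glia. Oligodendrocyte precursors gave 1 of 3 (Mdm2) beside 7.84% and 0 of 2 beside 3.28%. Microglia gave 0 of 4 beside 4.88% and 1 of 4 (Trp53, at 1.52, or 1.40 by Leiden cluster) beside 2.48%. Endothelial cells gave 0 of 3 in Emx1-Cre beside 3.84%, and in nestin-Cre there were too few. Over these 13 comparisons 10 of 67 member values were at least 1.5-fold higher and 0 at least that much lower, beside 4738 higher (6.0%) and 3447 lower of 78981 values over all genes.

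**Figure D2:**
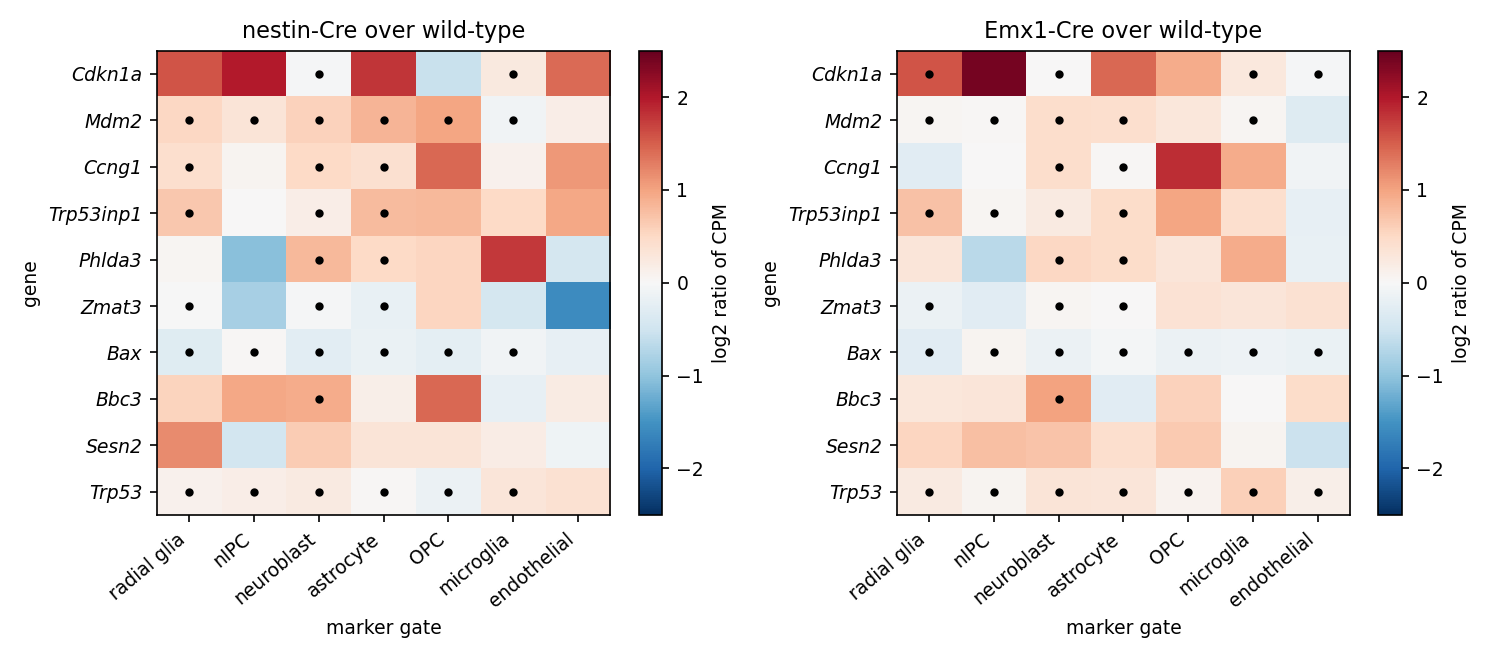
Ratio to wild type, as log2 of the CPM ratio (colour), of the 10 members (vertical axis) in each marker gate (horizontal axis) of nestin-Cre (left) and Emx1-Cre (right). A black dot marks values from at least 100 UMIs and at least 50 cells in both libraries; squares without a dot rest on few UMIs or cells. In both mutants Cdkn1a is high in radial glia, nIPC and astrocytes, and Bbc3 in neuroblasts.

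Whether the other members tracked Cdkn1a was described across 22 gate-by-library sums of at least 50 cells. These points share libraries and depth, so correlations are given without p. The Spearman correlation with Cdkn1a was 0.442 for Sesn2, 0.394 for Ccng1, 0.315 for Bbc3 and 0.0672 for Trp53. It was -0.115 for Trp53inp1, -0.175 for Phlda3, -0.194 for Mdm2, -0.526 for Zmat3 and -0.708 for Bax. Among 13125 genes, the best placed member, Sesn2, ranked 844. Among the genes most like Cdkn1a were Tgfbr2 (0.863), Vamp8 (0.834), Anxa7 (0.816) and Clip1 (0.815). The 5 points with the most Cdkn1a were all microglial or endothelial.

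Within a gate, cells with and without a Cdkn1a UMI were compared by the summed level of the other 9 members. In microglia it was 538 against 460.1 CPM in wild type, 569 against 462 in nestin-Cre and 652 against 467 in Emx1-Cre. In radial glia it was 570.4 against 517, 673 against 508 and 529 against 503, and in neuroblasts 588.1 against 588.2, 597 against 639 and 651 against 667. In nIPC it was 519 against 641, 863 against 669.6 and 738 against 653, with only 7, 15 and 30 cells with a UMI. Astrocytes gave 493 against 411, 389 against 439 and 501 against 436, and endothelial cells 421 against 474.5, 494 against 172 and 421 against 421. Cells with a UMI were deeper in microglia, at medians of 3005 against 1458 UMIs in wild type. The sum was thus higher in Cdkn1a-positive cells in all 3 libraries in microglia and radial glia, and not in any library in neuroblasts. In radial glia the counting intervals overlapped in wild type (417.6 to 760.8 against 491.3 to 542.6) and Emx1-Cre (452.6 to 614.9 against 479.2 to 527.8). They were apart there in nestin-Cre. In microglia they overlapped in wild type (483.2 to 597.5 against 408.7 to 516.1) and were apart in both mutants. In nIPC, astrocytes, oligodendrocyte precursors and endothelial cells the direction of the sum varied by library. The part of depth was not tested. Bax and Trp53 made up most of the sum in microglia. Single members could differ from the sum, and microglial Trp53inp1 was 10.76 against 12.65, 15.5 against 17.9 and 11.3 against 21.6 CPM, lower in cells with a UMI.

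Cdkn1a in progenitors was also split by 12 proliferation genes, a split chosen after seeing the data. In nIPC with UMIs of at least 3 of them it was 3.11 (0.848 to 7.97), 18.8 (10.7 to 30.5) and 22.0 (15.7 to 30.1) CPM. In the other nIPC it was 8.58, 10.8 and 24.8 CPM, from 3, 3 and 10 UMIs. The mutant values were thus present in nIPC that expressed proliferation genes. In radial glia with at least 3 of them Cdkn1a was 10.7, 23.0 and 31.5 CPM, and in the others 4.86, 22.8 and 15.1. In wild type the intervals of the 2 parts overlapped in both gates, so no direction is read there. They were 0.848 to 7.97 and 1.77 to 25.1 CPM in nIPC, and 6.13 to 17.4 and 2.1 to 9.58 CPM in radial glia. Cells with at least 3 were deeper, at medians of 4922 against 2793 UMIs in wild-type nIPC. Of the 12 proliferation genes themselves, 0 were at least 1.5-fold higher in nIPC of either mutant, beside 5.54% and 4.02% of all genes. At least that much lower were 3 and 0, beside 4.35% and 2% of all genes.

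The wider list of 39 p53 targets was read in the same way. In radial glia 4 of 15 counted genes were at least 1.5-fold higher in each mutant, beside 8.51% and 3.97% of all genes. In nIPC it was 1 of 11 beside 5.54% and 3 of 13 beside 4.02%. Neuroblasts gave 3 of 25 beside 10.7%, near that share, and 4 of 25 beside 7.41%. Astrocytes gave 1 of 17 beside 4.92% and 1 of 18 beside 3.03%, both near those shares. In microglia it was 0 of 10 beside 4.88% and 0 of 8 beside 2.48%. Plk2, a polo-like kinase, was 32.7, 97.4 and 83.8 CPM in neuroblasts and 25.5, 47.4 and 48.1 in radial glia. Ddit4 (REDD1), which restrains mTORC1 and also responds to other stresses, was 37.9, 72.5 and 78.2 CPM in nIPC and 67.4, 120.4 and 127 in neuroblasts. Sirt1, a deacetylase of p53 from the list of regulators, was 13.7, 29.5 and 34.9 CPM in radial glia and 11.2, 24.1 and 20.3 in astrocytes. Over all gates the wider list had 23 of 176 values at least 1.5-fold higher and 4 lower, against 9 of 61 for the members other than Cdkn1a and 6.0% higher over all genes. These are values and not separate genes. The same genes recur over gates and over mutants that share the wild-type library. Ddit4, Plk2, Btg2 and Sesn1 recur in the wider list, and Bbc3, Trp53inp1 and Mdm2 among the members.

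Other lists were counted over the same 13 comparisons, in which 6.0% of all values were at least 1.5-fold higher. Regulators of p53 had 10 of 129 values higher (7.75%) and other CDK inhibitors 3 of 34 (8.82%), both near that share. Integrated stress response genes had 12 of 50, of which 8 were Ddit4, also in the wider list of p53 targets, 3 Vldlr and 1 Atf4. Proliferation genes had 3 of 138 higher and 32 lower. In neuroblasts 6 and 7 of 12 were lower, beside 11% and 5.67% of all genes. Dissociation and immediate early genes had 22 of 123 higher and 7 lower. In radial glia 9 of 12 and 4 of 12 were higher, beside 8.51% and 3.97% of all genes. In astrocytes it was 1 of 10 and 3 of 12, beside 4.92% and 3.03%. In nIPC 0 of 7 were higher in either mutant, beside 5.54% and 4.02% of all genes, near those shares. Jun and Junb were lower there in nestin-Cre, beside 4.35% of all genes. The part of these genes in the radial glia, astrocyte and nIPC values was not tested. Genes of the 7SK and P-TEFb control list, Larp7 among them, had 9 of 62 higher and 13 lower.

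Neurospheres gave the only replicated measurement. Microglial markers summed to 0.196 to 0.720 CPM in the 5 libraries, with 7 of 10 at 0 in all of them, and endothelial markers to 2.79 to 3.60. Of the neural classes, 10 astrocyte markers, led by Aldoc, summed to 1038 and 1482 CPM in wild type and 875, 769.5 and 936 in the knockout, and 10 radial glia markers, led by Vim and with 1 at 0, to 2046 and 1980 against 2303, 2123 and 2195. The 10 markers of oligodendrocyte precursors, led by Olig1, summed to 7324 and 7560.0 CPM against 7574, 8844 and 8357. These classes moved with the genotype, and their part in the member values below was not tested. Cdkn1a was 80.7 and 57.4 CPM in wild type and 99.0, 100.7 and 125 in the knockout, all 3 above both wild-type values, with a log2 fold change of 0.65 (SE 0.169). Since Cdkn1a was chosen with such values known, this is a description. In bulk samples, fewer cells of a type and less RNA per cell cannot be told apart.

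Of the feedback genes, Mdm2 was 85.6 and 89.1 CPM in wild type and 104.2, 102.4 and 104.0 in the knockout, a log2 fold change of 0.24 (SE 0.0568). The knockout libraries lay close together and above both wild-type ones. Ccng1 was 279 and 205 CPM against 279.5, 279.2 and 340.3, where wild-type replicate 1 nearly reached the knockout. Trp53inp1 was 213 and 201 CPM against 239, 238 and 252, a log2 fold change of 0.23 (SE 0.0589).

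Bbc3 was 12.6 and 13.5 CPM in wild type and 17.5, 20.6 and 19.6 in the knockout, a log2 fold change of 0.56 (SE 0.116). Phlda3 was 52.9 and 39.96 CPM against 61.1, 61.5 and 67.5, a log2 fold change of 0.45 (SE 0.132). Bax, lower in mutant neuroblasts and radial glia by summed UMIs, was 125 and 105 CPM against 134, 133 and 146 here. Sesn2 was 91.5 and 74.2 CPM against 101, 99.2 and 115, and Trp53 110.2 and 92.6 against 131, 123 and 119.8. Zmat3, at 151 and 140.4 CPM against 143, 164 and 175, was the 1 member whose groups overlapped.

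All 10 members passed the filter on low counts. In 9 of 10 every knockout library lay above every wild-type library, as did 21.3% of all 17753 genes tested, while another 21.3% lay entirely below. The median log2 fold change of the members was 0.30 against 0.01 over all genes. The members were chosen with such values known, so no test of them is given and nothing is read from these counts.

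**Figure D3:**
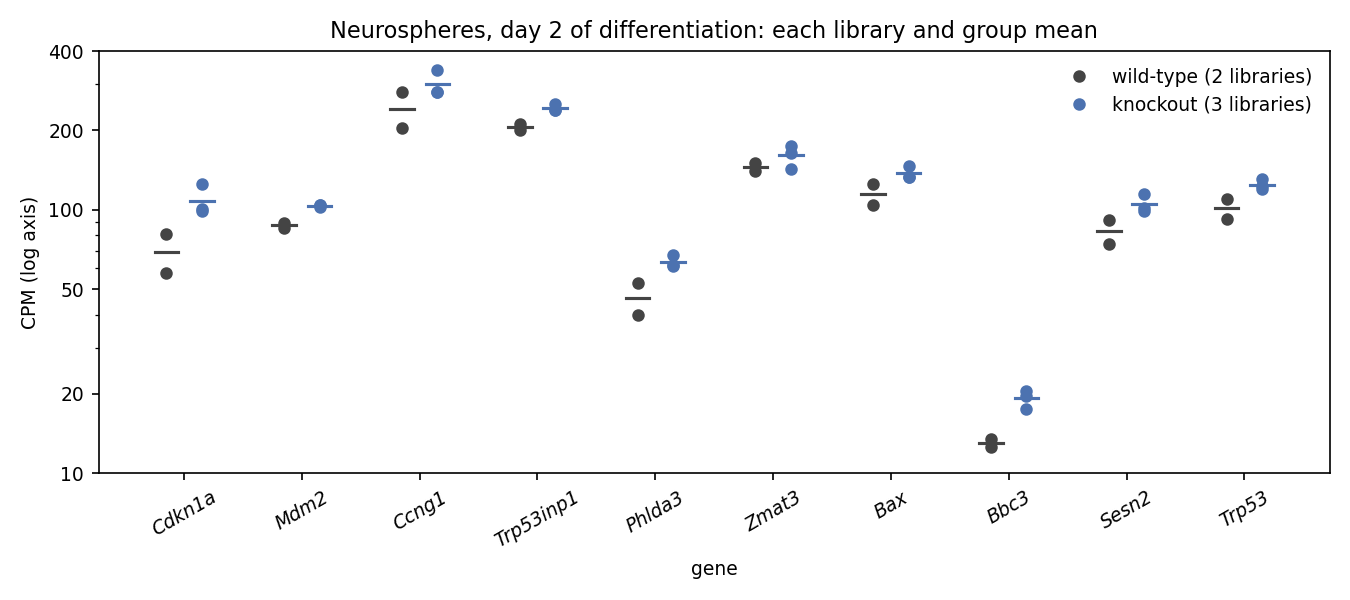
CPM (log axis) of the 10 members in each neurosphere library, 2 wild-type (grey) and 3 knockout (blue); bars are group means. All knockout points lie above all wild-type points for 9 members, Zmat3 being the exception.

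Wild-type replicate 2 was the lower of the pair for 8 members, all but Mdm2 and Bbc3. It also had the lowest sum of the 12 proliferation genes, 1159 CPM against 2274 in the other wild-type library and 2929, 2861 and 2747 in the knockout. All 12 of those genes were higher in every knockout library, beside 21.3% of all genes tested, with a median log2 fold change of 0.69. By edgeR 10 were higher at an unadjusted p under 0.05, beside 10.4% of all genes, and 0 passed the adjusted threshold. The size of the member differences depended on single libraries. Without wild-type replicate 1 the log2 fold change was 0.91 for Cdkn1a, 0.55 for Ccng1 and 0.40 for Bax. Without replicate 2 it was 0.43 for Cdkn1a, 0.26 for Phlda3, 0.20 for Sesn2, 0.18 for Trp53, 0.14 for Bax, 0.10 for Ccng1 and 0.09 for Zmat3. Zmat3 also moved with the knockout libraries, from 0.14 to 0.22 without replicate 1 and 0.08 without replicate 3.

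Of the wider list, 38 of 39 targets were tested. By edgeR 0 passed an adjusted p of 0.05, which 0.0169% of all genes did as higher and 0.0169% as lower, Larp7 among the latter. At an unadjusted p under 0.05, 11 were higher and 3 lower, beside 10.4% of genes higher and 11.2% lower. Entirely above wild type lay 15 and entirely below it 5, beside 21.3% of all genes on either side. The median log2 fold change of the wider list was 0.25. DESeq2 called 5 higher and 2 lower, beside 3.01% of genes higher and 3.57% lower, so the number called depended on the tool. Ddit4, at 55.2 and 50.3 CPM against 80.5, 80.9 and 87.3, came closest by edgeR, with a log2 fold change of 0.65 and an adjusted p of 0.082. Plk2 was 78.4 and 99.1 CPM against 128, 120.3 and 120.8. By edgeR 0 regulators of p53, 0 other CDK inhibitors, 0 integrated stress response genes and 0 dissociation genes passed, with 2, 1, 2 and 3 higher and 2, 0, 0 and 2 lower at an unadjusted p under 0.05.

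The members were also described by promoter sequence. Since they were chosen as genes of the p53 pathway, p53 decamers near them follow in part from that choice, and nothing is read from their number. RefSeq windows on GRCm38.p6, from 250 bases before to 50 after a gene start, were found for 8 members, 11 windows in all. They were searched for the 10-base p53 decamer, which is palindromic, so that both strands are covered. It was found in 5 of 11 member windows and in 8.36% of all 32851 windows. A window of Cdkn1a at chr17:29090729-29091028 (plus strand) held 2 decamers with 12 bases between them. Of all windows, 0.0731% held 2 decamers with at most 13 bases between them. The other Cdkn1a window, at chr17:29093519-29093818, held none. A match describes the letters and is neither a site of binding nor a cause, and no match says only that these letters are not in that window. The Cdkn1a window follows, because this gene has the largest ratios in progenitors, with the decamers in capitals.
Cdkn1a window: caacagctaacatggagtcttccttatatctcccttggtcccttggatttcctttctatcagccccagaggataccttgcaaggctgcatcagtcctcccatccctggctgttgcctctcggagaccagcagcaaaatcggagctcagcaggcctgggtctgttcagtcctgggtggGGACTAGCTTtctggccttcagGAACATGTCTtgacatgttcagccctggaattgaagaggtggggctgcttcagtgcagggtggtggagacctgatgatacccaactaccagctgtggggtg
The decamers of the other members are given with 10 bases on either side, again in capitals and on the strand of the gene: Bax at chr7:45467080-45467109 (minus), Mdm2 at chr10:117710925-117710954 (minus), Ccng1 at chr11:40755452-40755481 (minus) and Trp53 at chr11:69580274-69580303 (plus).
Bax: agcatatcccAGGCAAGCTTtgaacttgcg
Mdm2: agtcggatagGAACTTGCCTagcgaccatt
Ccng1: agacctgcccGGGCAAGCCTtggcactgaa
Trp53: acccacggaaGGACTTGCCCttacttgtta
No decamer was found in the windows of Phlda3, Sesn2 and Bbc3. Trp53inp1 and Zmat3 are named only.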

How the data were processed

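Single-cell values are UMI counts per gene and barcode that the authors made with Cell Ranger (4.0.0 in the matrix header) from 3′ libraries; neurosphere values are whole-number counts per Entrez gene that the authors deposited, from reads aligned with Minimap2 to a mouse transcriptome. How strand and shared reads were handled is not stated. The neurosphere table had 10 columns, of which 5 were not used because their names match no label. RefSeq names (GRCm38.p6) were matched to 39373 of 40814 Entrez IDs. Members and lists were chosen with earlier results of these data known.

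UMIs were summed per gate and library and given as CPM. Neurosphere counts were tested with edgeR 4.0.16 in R 4.3.3 (quasi-likelihood test, TMM, filterByExpr) and adjusted by Benjamini-Hochberg over 17753 genes. The biological coefficient of variation was 19.4%. DESeq2 1.42.0 was an alternative. The study gives the group sizes as mice, and p-values measure the spread between these libraries. The 2 wild-type libraries differed by more than sampling noise (chi-square of 61.0 for each degree of freedom), as did each knockout pair. Cells were clustered with scanpy 1.11.5 and leidenalg 0.10.2, on 2000 variable genes and 30 components at resolution 1. The fits and intervals were tested on simulated data.

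Values of all members are given in the 7 gates and in neurospheres. Of the wider targets and regulators, up to 6 were named by the smaller of their 2 ratios, in cells, and those past the adjusted threshold, in neurospheres. Ddit4 and Plk2 in neurospheres were added after their values were seen. Of the 5 genes most like Cdkn1a by Spearman correlation, 4 were named and 1 is not reported here. Alternatives were 2 or 4 markers, over 200 genes, thinning, no mixed cells, Leiden clusters, mean log-normalized values, other normalization, no filter, a replicate block and leaving out each neurosphere library. ATAC-seq and CUT&Tag were not analysed here.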

Additional observations from a re-analysis of the deposited data

Results flagged for a closer look

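In endothelial-gated cells Cdkn1a stood at 2.68 times the wild-type level in the nestin-Cre library and at 0.980 times in the Emx1-Cre library. What drew attention was that the nestin-Cre interval (2.05 to 3.48) lay above the Emx1-Cre one (0.763 to 1.26), which included 1. The nestin-Cre value rested on 34 cells, 26 of which held a Cdkn1a UMI, and it was 1.40 by Leiden cluster and 4.82 without mixed cells, where the Emx1-Cre value was 1.92. Immediate early genes also differed between the mutants in these cells. Fos stood at 2.74 (2.39 to 3.14) times wild type in nestin-Cre and 1.415 (1.26 to 1.59) in Emx1-Cre. Egr1 stood at 3.415 (2.76 to 4.22) and 1.26 (1.03 to 1.54). Hspa1a and Hspa1b of the same list lay below wild type in nestin-Cre, at 0.412 and 0.530, from few UMIs. The part of these genes and the difference between the mutants were not tested.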

How the results depend on the processing

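The Cdkn1a ratio in nIPC stayed above 1 under every alternative run, from 1.76 to 6.70 in nestin-Cre and from 3.97 to 9.23 in Emx1-Cre. The lowest values came from thinned cells, where few UMIs remained and both intervals included 1. The highest came from subtracting RNA at the microglial ratio. No cluster had nIPC as its most common class, so clusters gave no value there. Members at least 1.5-fold higher numbered 10 of 67, but 3 of 33 after thinning, where fewer genes reached the minimum of UMIs, and 28 by mean log-normalized values, which respond to depth. The share of all genes in these alternative settings is not given here, so nothing is read from the change in these counts. Member ratios per gate were counted again in each alternative setting, so these counts are not of separate ratios. In 1136 cases the ratio stayed within its counting interval, in 120 it moved and in 2 it reversed. Of the 120, 47 came after thinning and 32 by log-normalized mean. With 2 markers, 4 markers or over 200 genes, 138 stayed in each setting. By single cluster of at least 50 gated cells in each library and with a wild-type UMI, the Cdkn1a ratio in neuroblasts ran from 1.05 to 4.95 in nestin-Cre and from 0.232 to 3.28 in Emx1-Cre. That of Bbc3 was 0.714 in nestin-Cre in cluster 6, from 8 wild-type UMIs, and 0.761 in Emx1-Cre in cluster 15, from 3, the opposite direction to the whole gate.

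Of the wider p53 targets in neurospheres, 0 passed by edgeR, with RLE factors or without a filter, and 7 by DESeq2. Leaving out any 1 knockout library also gave 0 by edgeR. Without either wild-type library only 1 wild-type library remained, so no count is given for those fits. With a replicate block 0 passed, for the list and over all genes, and 1 residual degree of freedom remained. Replicate numbers did not pair the libraries, since deviations from the group means correlated at 0.0611 and 0.242 over only 2 shared numbers. Log2 fold changes of the members, given without a test, were positive in every setting.

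With 7 wild-type UMIs of Cdkn1a in nIPC the ratio is imprecise, and with 1 library per genotype ratios between animals cannot be estimated. Clusters mostly of 1 library held wild-type cells of every gate described but the endothelial one.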
